A study of Mus musculus with 6 samples.

Results

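The genes described here make melanin or build the melanosome, the organelle that holds it, in mouse retinal pigment epithelium with choroid (RPE/choroid). They were taken by symbol as Tyr, Tyrp1, Dct, Pmel, Mlana, Oca2, Slc45a2, Slc24a5, Gpr143 and Mc1r, and all 10 were among the 33924 genes of the deposited table. RPE/choroid had been scraped from the sclera of wild-type C57BL/6J mice after the neural retina was lifted off, and both eyes of a mouse went into a sample. The 6 poly(A)-selected libraries came from 3 young mice, labelled 1 to 2 months old, and 3 aged mice, whose titles give 20 to 24 months and whose age field gives 22 to 24 months. Sex is given as male in the labels, but the study's methods name both sexes and a somewhat later age for the young group. C57BL/6J is a pigmented, non-agouti strain, so no group was albino. The design compares young with aged tissue. The table gives 1 mean per gene over all libraries of both ages and no value for a single mouse, and the columns of the authors' own age comparison were not used, so the values below are levels of the pooled tissue and say nothing about age.

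Melanin is made from tyrosine inside melanosomes. Tyrosinase carries out the rate-limiting step, and the related enzymes dopachrome tautomerase (Dct) and tyrosinase-related protein (Tyrp1) act further along the eumelanin branch. Pmel forms the fibrils on which melanin is laid down, Mlana is a small membrane protein that binds Pmel, and Oca2, Slc45a2 and Slc24a5 are membrane transporters that set the ionic conditions and the pH of the organelle or of its precursors. Gpr143 is a G protein-coupled receptor of the melanosome membrane, and Mc1r is the receptor for melanocortins on melanocytes of skin and hair. In the eye, melanin is made by RPE cells, which arise from the optic neuroepithelium and lay down most of their pigment before birth, and by choroidal melanocytes, which arise from the neural crest. The factor MITF drives pigment genes in both cell types and binds E-boxes of the form CATGTG.

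RefSeq promoters of GRCm38.p6, covering 250 bases before to 50 bases after a transcription start, were at hand for 6 of the 10 genes (Tyr, Tyrp1, Dct, Oca2, Slc24a5 and Mc1r) and not for Pmel, Mlana, Slc45a2 or Gpr143. Each of the 6 promoters held CATGTG on either strand, which 14.2% of all 32851 promoters did. The windows below show the E-box in capitals with up to 30 bases on each side, cut at the RefSeq start, 5′ to 3′ along the gene, and are printed because the match to the MITF motif is what these genes share in sequence.

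Tyr, chr7:87493513-87493563, minus strand: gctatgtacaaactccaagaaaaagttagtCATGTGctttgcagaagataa
Tyrp1, chr4:80834137-80834202, plus strand: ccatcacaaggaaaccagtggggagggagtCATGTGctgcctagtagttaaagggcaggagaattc
Dct, chr14:118052361-118052426, minus strand: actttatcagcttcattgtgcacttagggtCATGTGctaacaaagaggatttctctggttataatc
Slc24a5, chr2:125068084-125068126, plus strand: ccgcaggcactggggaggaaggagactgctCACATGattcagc
Oca2, chr7:56239543-56239608, plus strand: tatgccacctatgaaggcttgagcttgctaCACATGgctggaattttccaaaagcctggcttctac
Mc1r, chr8:123407001-123407066, plus strand: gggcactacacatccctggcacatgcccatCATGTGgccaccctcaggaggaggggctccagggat

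In the genes of the 3 related enzymes the E-box was preceded by the same letters. The longer form GTCATGTG, which contains the E-box, was found in the promoters of Tyr, Tyrp1 and Dct and in 1.06% of all promoters. The motifs, CATGTG among them, were chosen in advance for these pigment genes, so the shares are a description and no independent comparison. The intermediate form TCATGTG was found in 5 of the 6 promoters, Oca2 being the exception, and in 3.77% of all promoters. The E-box began 21 bases before the RefSeq start in Tyr, 46 bases before it in Tyrp1 and 150 bases before it in Dct, which held another match on the opposite strand 232 bases before the start. In Slc24a5 the match lay 13 bases before the start, in Oca2 186 bases before it, and in Mc1r there was a pair of matches at 62 and 51 bases. The symmetric E-box CACGTG was in 0 of the 6 promoters against 7.15% of all promoters. TAATCC, a core motif of OTX factors such as the RPE regulator Otx2, was in the promoters of Dct and Tyrp1 and in 7.06% of all promoters. In Dct it lay 119 bases before the start, and in Tyrp1 it lay 4 bases after it. GENCODE places some starts elsewhere. The principal Dct transcript begins there 61 bases after the RefSeq start, and the Mc1r transcript 25 bases after it. The matches of Dct and Mc1r thus lie further from the GENCODE starts. The GENCODE Tyrp1 gene begins 90 bases before the RefSeq start, so the Tyrp1 window falls in an exon of 1 of its 4 transcripts. The principal Tyrp1 transcript begins after the window. The last bases of the Slc24a5 window also lie in an exon, as its GENCODE start is 3 bases before that of RefSeq, and the windows of Tyr, Dct, Oca2 and Mc1r touch no exon of their gene. These matches are letters in a window of the reference sequence, and binding was not measured in this series.

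**Figure D1:**
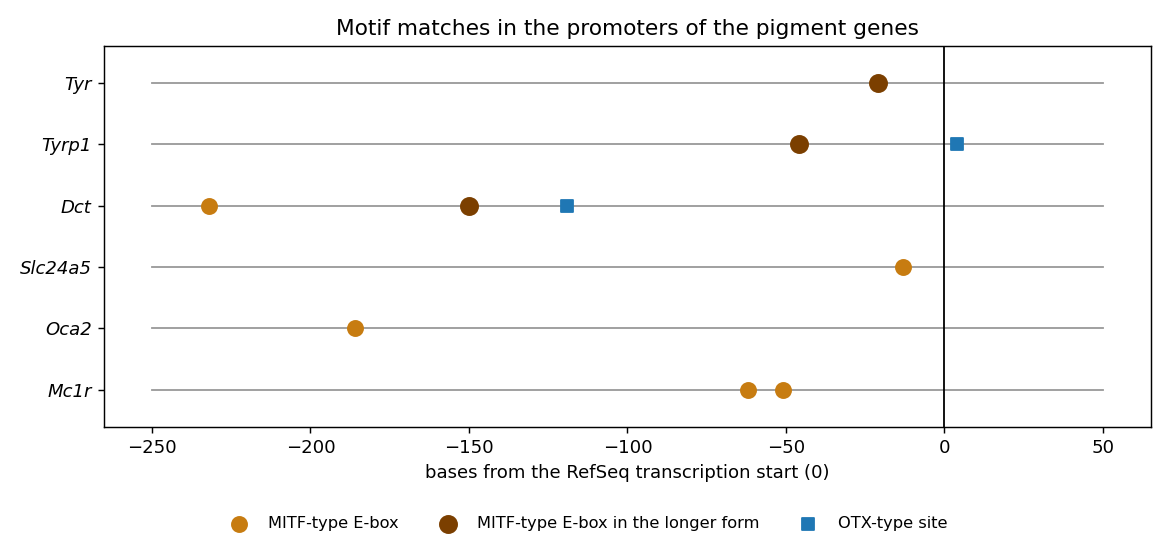
Positions of motif matches in 6 promoters, in bases from the RefSeq transcription start at 0, with each promoter drawn as a line from 250 bases before to 50 bases after the start. Circles mark the MITF-type E-box, dark where it has the longer form found in Tyr, Tyrp1 and Dct, and squares mark the OTX-type site in Dct and Tyrp1.

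Among other genes of the pigment pathway the E-box was about as frequent as among all genes. Of 42 other pathway genes with a promoter entry, drawn from 5 lists of melanosome assembly, transport, other melanosome proteins, transcription factors and signalling, 6 held CATGTG in a promoter (14.3%), against 15.9% of 27025 genes. They were Hps1, Bloc1s1, Bloc1s4, Myo7a, Slc7a11 and Otx2. Hps1, a subunit of a complex that directs cargo to melanosomes, was the 1 gene among the 42 with the longer form GTCATGTG, which 1.17% of all genes held.

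The genes of melanin synthesis and melanosome structure were among the most abundant transcripts of the tissue. Together the 10 genes held 1.42% of the summed mean normalized counts of the table, and Dct, Pmel and Tyrp1 alone held 1.22%. Of the 10 genes, 8 lay in the highest 10% of genes by mean, and Gpr143 and Mc1r did not. Because a long transcript yields more fragments, levels are compared between genes as the authors' mean normalized count per kilobase of the longest annotated transcript, named here the level per kilobase. Over the 17973 genes with a mean of at least 10 and an annotated length, the median level per kilobase was 213, and over the 10 pigment genes it was 4931. The order of the levels per kilobase ran from Dct through Pmel, Tyrp1, Mlana, Slc24a5, Tyr, Slc45a2, Oca2 and Gpr143 down to Mc1r. With a single mean per gene the spread between mice is unknown, so which neighbours in that order differ beyond their spread could not be examined. The sequencing depth of single libraries is likewise unknown.

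**Figure D2:**
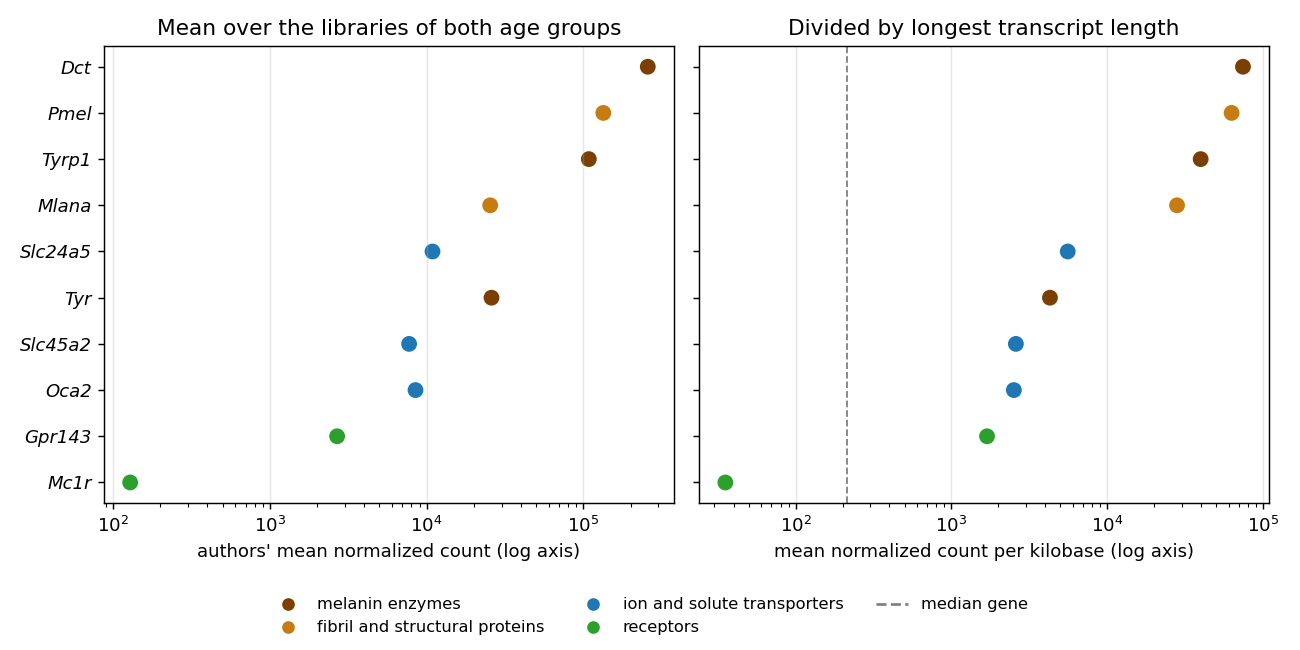
Authors' mean normalized count of the 10 pigment genes over the libraries of both ages (left) and the same mean per kilobase of longest transcript (right), on log axes, with each point 1 gene coloured by role and, on the right, a dashed line at the median gene of 213. Dct, Pmel and Tyrp1 lie highest on both scales, Mc1r lies lowest, and Tyr falls from place 4 to place 6 when its long transcript is taken into account.

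Among the enzymes, Dct was the most abundant. It had an authors' mean normalized count of 256984, which was place 7 among all 33924 genes. Its level per kilobase was 74294, or 349 times that of the median gene. That value divides by a transcript of 3459 bases with a retained intron, and with the principal coding transcript of 2202 bases it was 116705. Tyrp1, which is thought to act late in eumelanin synthesis and to stabilise tyrosinase, had a mean of 108142 (place 18) and a level per kilobase of 39758. Tyrosinase itself had a mean of 25902 (place 158) and a level per kilobase of 4287, which 95.55% of genes lay below.

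The transcript of the rate-limiting enzyme was thus the least abundant of the enzyme family. Per kilobase of longest transcript, Dct was 17.3 times as abundant as Tyr, and Tyrp1 was 9.27 times as abundant as Tyr. With principal transcripts Dct stood at 27.2 times Tyr, and with median transcript lengths Dct stood at 11.4 times and Tyrp1 at 5.3 times. The ratios of the undivided means were 9.92 and 4.18, since the annotated Tyr transcript is 6042 bases long with 4281 bases after the coding part. The level of Tyr per kilobase would rise to 11102 with the median length of its 3 annotated transcripts in place of the longest, where Dct would stand at 126282 and Tyrp1 at 58837. Dct was 1.87 times as abundant as Tyrp1 per kilobase of longest transcript, and 2.94 times with the principal transcripts.

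The enzymes are similar in protein sequence and differ in gene structure. Aligned over their length, Tyrp1 and Dct were identical at 49.4% of 512 aligned residues, Tyr and Tyrp1 at 44.3% of 499, and Tyr and Dct at 43.3% of 501. The proteins have 533 residues (Tyr), 537 (Tyrp1) and 517 (Dct). In GRCm38, Tyr (ENSMUSG00000004651, chr7:87424771-87493512, minus strand) has 5 exons in its principal transcript. Tyrp1 (ENSMUSG00000005994, chr4:80834123-80851719, plus strand) and Dct (ENSMUSG00000022129, chr14:118012790-118052244, minus strand) have 8 exons each. At the level of reads the family members do not share sequence: 0% of the 50-base words of the principal Tyrp1 and Dct transcripts occurred in transcripts of any other gene, and 1.2% of those of Tyr did, none of them in Tyrp1 or Dct.

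The structural genes were of the same order of abundance as Dct and Tyrp1. Pmel, the fibril protein, had a mean of 133753 (place 14) and a level per kilobase of 62795. Dct was 1.18 times as abundant as Pmel per kilobase of longest transcript and 1.86 times with principal transcripts, whereas Pmel was the higher of the pair, at 205458 against 126282, when the median transcript length was used. Mlana had a mean of 25408 (place 165), which was 0.981 times that of Tyr, but its transcript of 906 bases is short. Its level per kilobase was 28044, which was 6.54 times that of Tyr, while Pmel stood at 2.24 times Mlana. With median transcript lengths these ratios were 2.78 and 6.65. Pmel (ENSMUSG00000025359, chr10:128704195-128720238, plus strand) has 11 exons and a protein of 626 residues, and 4.93% of its principal transcript overlaps exons of Dgka on the opposite strand, a gene with an authors' mean of 651. Mlana (ENSMUSG00000024806, chr19:29697824-29708634, plus strand) has 5 exons and encodes 113 residues.

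The transporter genes were expressed well below the structural genes. Slc24a5, a sodium/calcium exchanger, had a mean of 10893 (place 550) and a level per kilobase of 5575. Slc45a2, a relative of sugar transporters that raises melanosome pH, had a mean of 7728 (place 918) and a level per kilobase of 2591. Oca2, which is needed for a chloride conductance of the melanosome, had a mean of 8486 (place 803) and a level per kilobase of 2515. Slc24a5 thus led the group. Slc24a5 was 2.22 times as abundant as Oca2 and 2.15 times as abundant as Slc45a2 per kilobase. Slc45a2 and Oca2 differed by a ratio of 1.03, which became 0.956 with principal transcripts and 0.513 with median transcript lengths, so their order turns with the choice of transcript. With the median lengths Slc24a5 stood at 3.57 times Oca2 and 6.96 times Slc45a2. Slc45a2 has 1 annotated transcript, so its level is the same with either length, whereas Slc24a5 has 3 transcripts and Oca2 has 6. All 3 genes lay in the highest 10% of genes per kilobase, with 92.41% of genes below Oca2 and 96.51% below Slc24a5. Per kilobase of longest transcript, Slc24a5 stood at 1.3 times the level of Tyr, although its undivided mean was 0.421 times that of Tyr.

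The value of Slc24a5 carries a limit from its position. The gene (ENSMUSG00000035183, chr2:125068124-125088677, plus strand) has 9 exons, and 921 bases, or 47.1% of its principal transcript, overlap exons of Myef2 on the opposite strand, which had an authors' mean of 2688. The library kit keeps strand, but whether strand was used in quantification is not given in the sources used here, so reads of Myef2 and Slc24a5 in that stretch cannot be told apart here. A further 2.68% of the 50-base words of Slc24a5 occur in Gm37308. Oca2 (ENSMUSG00000030450, chr7:56239760-56536518, plus strand) spans 296.8 kb in 24 exons and is the longest of the 10 genes, and Slc45a2 (ENSMUSG00000022243, chr15:11000721-11029233, plus strand) has 7 exons. The 3 transporters belong to different protein families, and pairwise alignments gave 27.8% to 30.2% identity over the aligned residues. For the receptors Gpr143 and Mc1r the identity was 27.4%.

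Per kilobase of longest transcript the receptors stood lowest. With median transcript lengths Gpr143, at 2927, came above the transporter Slc45a2 at 2591. Slc45a2 and Mc1r have 1 annotated transcript each, so their median length is also their longest, whereas Gpr143 has 3 transcripts. Gpr143, the ocular albinism receptor that regulates melanosome size, had a mean of 2684 (place 3443) and a level per kilobase of 1692, which was 7.95 times the median gene and above 88.89% of genes. The gene (ENSMUSG00000025333, chrX:152781921-152808646, plus strand) has 9 exons. Mc1r had a mean of 128.6 (place 13839) and a level per kilobase of 35.4, which was 0.166 times the median gene and above 19.26% of genes. Mc1r (ENSMUSG00000074037, chr8:123407107-123410744, plus strand) is a single-exon gene, and 653 bases, or 17.9%, of its transcript overlap exons of Gm38092 on the opposite strand. Gpr143 was thus 47.9 times as abundant as Mc1r per kilobase, and Dct was 2101 times as abundant. The first ratio was 20.9 between undivided means and 82.8 with median transcript lengths, and the second was 3301 with principal transcripts and 3572 with median lengths. Mc1r was the 1 gene of the 10 below the median gene.

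**Figure D3:**
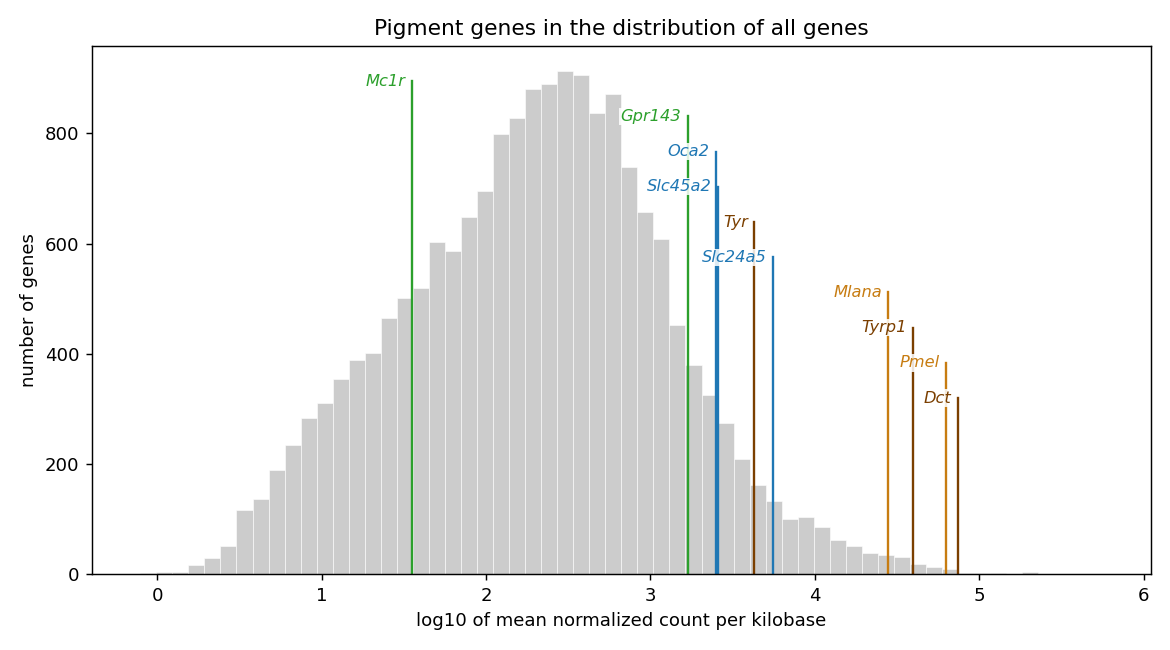
Histogram of the log10 of the mean normalized count per kilobase of longest transcript over 17973 genes (grey bars, number of genes per bin) with the 10 pigment genes as vertical lines coloured by role, drawn at different heights only so that the names can be read. Dct, Pmel, Tyrp1 and Mlana lie in the far right tail and the transporters, Tyr and Gpr143 on the right shoulder. Mc1r lies left of the peak, with 19.26% of genes below it.

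Genes of the melanosome biogenesis complexes all had lower levels per kilobase than the enzyme, structural and transporter genes, with the longest and with the principal transcripts. The list of melanosome biogenesis complexes (HPS and BLOC subunits, AP-3, Vps33a and Lyst) had 17 genes, with a median level per kilobase of 400 and 0 genes in the highest 10%. Its highest per kilobase of longest transcript were Snapin (1640), Dtnbp1 (1516) and Ap3d1 (926), whereas with principal transcripts Dtnbp1 (2008) stood above Snapin (1640) and Bloc1s1 (973) above Ap3d1, and its lowest was Lyst, a large protein that controls the size of lysosome-related organelles, at 75.9. Among 8 genes of melanosome transport the median was 777. Rab27a, the GTPase that ties melanosomes to myosin motors, was highest at 3694, followed by Rab38 (1713), which delivers tyrosinase family proteins, and Myrip (1567), which links Rab27a to the RPE myosin Myo7a. With principal transcripts Myo5a, a myosin motor of melanosomes, had a level of 1626 in place of 886 and stood above Myrip. Mlph, which links Rab27a to Myo5a in skin melanocytes, was lowest at 407.

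Of 7 other melanosome proteins, Gpnmb, a relative of Pmel that macrophages also make in quantity, had a level per kilobase of 22387, below Pmel and near Mlana. Cd63 (1924, or 5020 with its principal transcript) and Bace2 (841), both with roles in Pmel sorting or processing, followed, and the copper transporter Atp7a, which supplies tyrosinase, was lowest at 102. Because Gpnmb is shared with macrophages, whose 5 markers had a median level per kilobase of 1217 with C1qa at 12659, its level cannot be assigned to pigment cells.

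The transcription factors that act on pigment genes differed widely in level, and 6 of 9 lay above the median gene. Of 9 factors, Otx2 was highest at 4198 per kilobase, and Mitf (1157) and Pax6 (1116), both expressed in RPE, followed, in the opposite order with principal transcripts, where Pax6 stood at 1722. Lef1, an effector of Wnt signalling, was lowest at 25.5. In the signalling list of 9 genes, Edn3, a ligand that supports melanocytes, had a level of 5559 and its receptor Ednrb 3846, and Kitl, the ligand of the receptor Kit, had 1255. The agouti gene, listed in the table under the symbol a and written Asip elsewhere, was lowest at 5.43 per kilobase with a mean of 4.0, under the minimum of 10. Pomc, the precursor of the melanocortins that act on Mc1r, had a mean of 67.5.

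**Figure D4:**
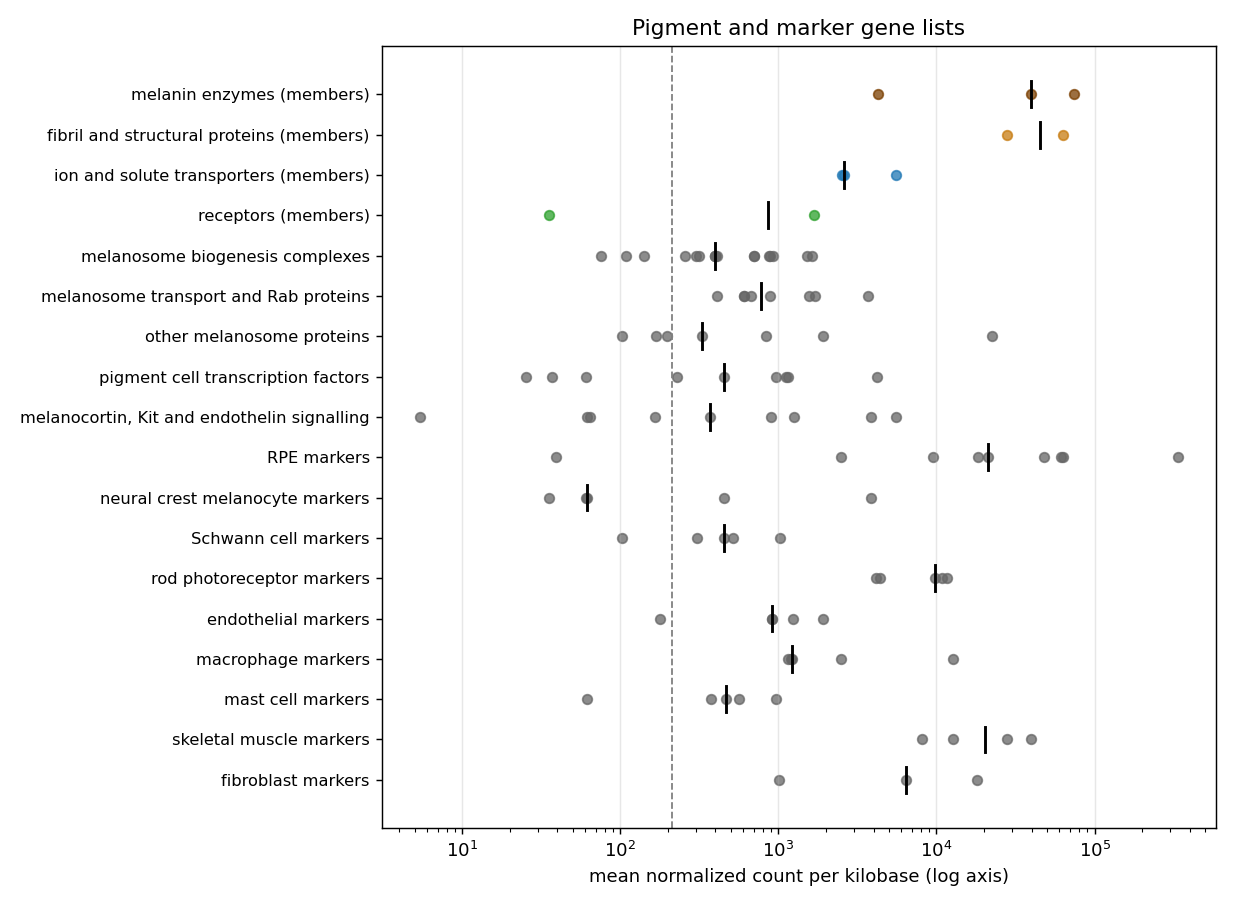
Mean normalized count per kilobase of longest transcript on a log axis for each gene (points) of the pigment gene groups, the other pathway lists and the cell type marker lists, with black bars at the median of each list and the dashed line at the median of all genes. The enzyme and structural groups have medians of 39758 and 45420, above that of the RPE markers at 21213, and the neural crest melanocyte markers have a median of 61.2.

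Markers of the RPE were high, and so were those of rods and skeletal muscle given below. Of 9 RPE markers, 8 lay in the highest 10% of genes per kilobase, and the median was 21213. Rgr (63232), Rpe65 (61154) and Rlbp1 (47916), which serve the visual cycle, were of the same order as Dct and Pmel, and Ttr was highest at 335233. Best1, a chloride channel of the RPE, was the exception at 39.3. Of the markers of neural crest melanocytes, Mc1r (35.4), Pax3 (60.9) and Kit (61.2) lay below the median gene. Sox10 (452) and Ednrb (3846) lay above it. None of these is at 0, and mast cells also express Kit, Schwann cells also express Sox10, and many cell types also express Ednrb. The 5 mast cell markers had levels between 61.2 and 972 and the 5 Schwann cell markers between 103 and 1022, or up to 3908 (Mbp) with principal transcripts, so the share of RPE and of melanocytes in each pigment gene cannot be told apart from these means.

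RNA from neighbouring tissue was also in the libraries. All 5 rod markers reported here and all 4 skeletal muscle markers lay in the highest 10% of genes per kilobase. A place in that range thus does not set the RPE markers apart. The 5 rod markers reported here had levels per kilobase between 4145 (Pde6b) and 11671 (Prph2), or between 6053 (Pde6b) and 27111 (Sag) with principal transcripts, and the 4 skeletal muscle markers between 8136 and 39379 (Tnnt3). The muscle markers held 4093 ppm of the summed means, against 14213 ppm for the 10 pigment genes and 25277 ppm for the RPE markers. Counts of such RNA enter the summed means, so the share of 1.42% for the pigment genes refers to the tissue as collected. In bulk tissue, the number of pigment cells and the amount of RNA per pigment cell cannot be told apart either.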

How the data were processed

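RNA of 6 RPE/choroid samples, 3 young and 3 aged, was sequenced by the authors, who used BBDuk for trimming, STAR for mapping to GRCm38 transcripts and Sailfish for quantification, scaled the values by total count and compared the ages with DESeq2. The deposited table gives for each gene a signal, the authors' mean normalized count over the libraries of both ages. It further holds the authors' fold change, standard error, Wald statistic, p-value and adjusted p-value, which were not used. No column holds a single library, so the planned fit by age was not run, and neither SDs nor depths are known.

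The sources describe TPM values turned into normalized counts. Among low means, 288 genes shared 0.32276, the most frequent value, and 182 shared 0.16138. The second value was searched for at a ratio of 2 to the first, so that ratio is no finding. Means were taken as not divided by length because many genes shared a value, as whole reads in a library would give. This reading was not tested further. Lengths came from GENCODE release M21 (GRCm38) and were found for 97.3% of the 18479 genes with a mean of at least 10, older symbols being matched through RefSeq synonyms. The level per kilobase divides the mean by the longest transcript. The principal transcript is the one tagged by APPRIS in GENCODE, and words of 50 bases were searched in all its transcripts. Proteins translated from principal transcripts were aligned globally (BLOSUM62, gap costs 10 and 0.5). Motifs were searched on both strands of RefSeq promoters. The rank and motif functions were tested on made-up data. Python 3.11.15 with pandas 2.3.3, numpy 2.4.6, Biopython 1.88 and matplotlib 3.10.9 was used.

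The genes, lists and motifs were chosen with earlier results of these data known. The genes named are the 10 pigment genes and, of each pathway list, the 3 highest and the lowest per kilobase, with marker genes to check the tissue, of which 1 rod marker is not reported here. Beyond that rule, Pomc, Bloc1s1, Myo5a and the 6 genes with a promoter match were named after their values were seen. The alternatives were other transcript lengths, no division by length, other minimum means, a total without mitochondrial genes and a shorter promoter window.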

Additional observations from a re-analysis of the deposited data

How the results depend on the processing

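No paired analysis was possible because each gene has a single mean over all libraries, and likewise no replicate could be left out. Of the 10 pigment genes, 8 kept their place in the order per kilobase with the longest coding transcript and with the principal transcript, an alternative added after seeing the data, and 5 kept it both with the median transcript length and with means not divided by length. Dct, Pmel and Tyrp1 held the highest 3 places and Mc1r the lowest under each of these choices, and Pmel and Dct changed places with the median length only. The pigment genes held 1.46% of the summed means when mitochondrial genes, with 2.35% of the total, were left out of it. Of the 10 genes, 8 lay in the highest 10% by mean also among genes above 0 and among genes with a mean of at least 100. In the 250 bases before the start alone, TAATCC was in 1 of 6 promoters in place of 2, since the Tyrp1 match lies after the start, and the counts for the other 4 motifs did not change.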
